A study of Saccharomyces cerevisiae with 8 samples.

Results

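The 34 nuclear genes named *MRPL1* to *MRPL51*, which encode proteins of the large subunit of the mitochondrial ribosome, were followed through the response to NaCl in 3 yeast strains. They were taken by their systematic names from a table of 6868 features, and all 34 were found, each with a value on all 8 arrays. The mitochondrial ribosome translates the few proteins that mitochondrial DNA still encodes, most of them subunits of the respiratory chain and the ATP synthase. The proteins of the *MRPL* genes are made in the cytosol, imported into mitochondria and assembled there on an RNA made from mitochondrial DNA. Some have a counterpart in the bacterial ribosome and others are found only in mitochondria. Genes for ribosomal proteins of the cytosol are a familiar group of genes repressed by stress in yeast, and the mitochondrial ones are regulated apart from them.

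All strains were *Saccharomyces cerevisiae* of the W303 background. The *cdc14-3 snf1* strain (3 arrays) joins both of the following mutations, the *cdc14-3* strain (2 arrays, replicates 2 and 3) carries a temperature-sensitive form of Cdc14, a phosphatase needed to leave mitosis, and the *snf1* strain (3 arrays) lacks the kinase Snf1, which acts when glucose is scarce and is needed to turn on many respiratory genes. Cultures in rich YPD medium were moved from 25 °C to 35 °C and then received 0.7 M NaCl for 30 min at 35 °C. Replicate 1 of *cdc14-3 snf1* and replicate 1 of *snf1* had spent 90 min at 35 °C when NaCl was added, and the other 6 arrays 2 h. All 3 strains were thus heated, all carry at least 1 of the mutations, and no wild-type arrays were analysed here.

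On each array, cDNA of NaCl-treated cells was compared with cDNA of unstressed cells of the same strain, collected just before NaCl, so the treated cells had also been longer at 35 °C. Each value is a log2 ratio of treated over unstressed cells, and a ratio within a strain gives neither the level of a transcript nor the effect of a mutation on that level. The direction and the log base are likely rather than stated with the values: the same values occur in the study's source data as log2 changes after NaCl, and genes for cytosolic ribosomal proteins lay below 0. The treated cells carried the same dye on all 8 arrays, so a dye bias can enter a response but cancels in a difference between strains. The arrays held values for 6165 to 6776 features, with medians of -0.00065 to 0 and SDs over features of 0.72 to 1.10. The arrays heated for 90 min stood apart: limma array weights were 0.48 for *cdc14-3 snf1* replicate 1 and 0.21 for *snf1* replicate 1, and 0.85 to 3.20 for the other 6 arrays. Over features those 2 arrays correlated with each other (Pearson's r 0.90) more closely than either did with its own strain (r 0.77 to 0.84). Nothing in the labels says that the replicates were separate cultures, so the p-values measure only the spread between these arrays.

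Most *MRPL* genes were lower after NaCl, by modest amounts. The median ratio of the 34 genes was -0.34 in *cdc14-3 snf1*, -0.48 in *cdc14-3* and -0.47 in *snf1*. The median of all 6135 tested features was -0.03 in *cdc14-3 snf1*, -0.00 in *cdc14-3* and -0.06 in *snf1*. On single arrays the median of the 34 genes was -0.28, -0.16 and -0.46 in *cdc14-3 snf1*, -0.51 and -0.48 in *cdc14-3*, and -0.59, -0.41 and -0.30 in *snf1*. It was therefore below 0 on every array, and the ranges of *cdc14-3 snf1* and *snf1* overlapped. Of the 34 genes, 14 (41.2%) lay below 0 on all 8 arrays, against 24.5% of all features with complete values. *MRPL16* alone lay above 0 on all 8, a pattern that 20.2% of all features had.

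**Figure D1:**
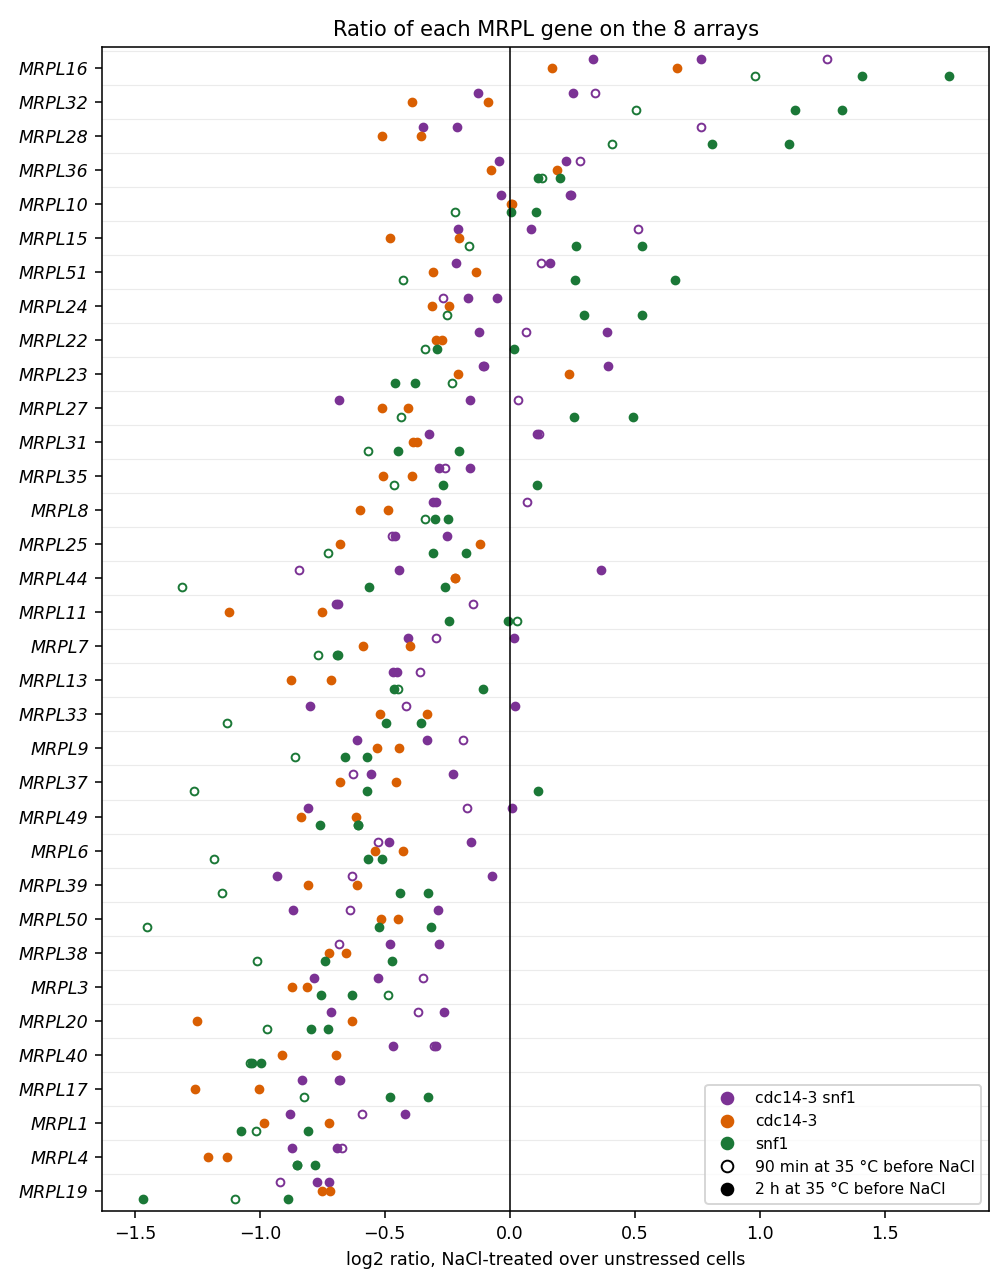
Log2 ratio of NaCl-treated over unstressed cells (horizontal axis) for each of the 34 *MRPL* genes (vertical axis, ordered by the mean over the 8 arrays) on each array. Colours mark the strains and open circles the arrays heated for 90 min before NaCl. Most points lie left of 0, and *MRPL16* lies right of 0 on all 8 arrays.

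Each strain's mean response was tested against 0 in limma over the 6135 features that had at least 2 values in each strain, and a gene was called at a Benjamini-Hochberg adjusted p under 0.05. All 34 *MRPL* genes passed the filter. In *cdc14-3 snf1*, 13 *MRPL* genes fell and 1 rose, where 46.1% of all features were called (25.5% lower and 20.6% higher). In *cdc14-3*, 15 fell and 0 rose, where 40.3% of all features were called (22% lower and 18.3% higher). In *snf1*, 18 fell and 3 rose, where 51.3% of all features were called (27% lower and 24.3% higher). The genes called made up 41.2% of the 34 in *cdc14-3 snf1*, 44.1% in *cdc14-3* and 61.8% in *snf1*. A change was thus about as frequent among *MRPL* genes as among all features in the strains with *cdc14-3*, and the changes were mostly in 1 direction. The count for *cdc14-3* was 2 without its replicate 2, where 14% of all features were called, and 8 without its replicate 3, where 19.5% were. That for *cdc14-3 snf1* was 8, 8 and 6 without its replicates 1, 2 and 3, where 33.9% to 34.2% of all features were called. Over the 2 h arrays alone the counts were 12 in *cdc14-3 snf1* (46.4% of all features), 21 in *cdc14-3* (52.1% of all features) and 18 in *snf1* (50.7% of all features). In *snf1* those 18 were 12 lower and 6 higher. Without *snf1* replicate 1 the count was 12 lower and 5 higher, where 46.3% of all features were called in either direction.

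The same 11 genes fell in all 3 strains: *MRPL1*, *MRPL3*, *MRPL4*, *MRPL9*, *MRPL13*, *MRPL17*, *MRPL19*, *MRPL20*, *MRPL38*, *MRPL39* and *MRPL40*. Of all features, 12.6% fell in all 3 strains. How many *MRPL* genes did so depended on single arrays: it was 2 (*MRPL4* and *MRPL17*) without *cdc14-3* replicate 2, 6 without *cdc14-3* replicate 3, 7, 6 and 5 without replicates 1, 2 and 3 of *cdc14-3 snf1*, and 9 to 11 without a *snf1* array. It was 7 with heat time as a covariate and 5 with each strain fitted on its own arrays. The matching shares of all features are not given, so these counts cannot be read against the 12.6%. Fewer of all features were also called in some of these fits: 33.9% to 34.2% in *cdc14-3 snf1* without 1 of its arrays, against 46.1% with all 8. The strain means of these 11 genes ranged from -1.17 (*MRPL4* in *cdc14-3*) to -0.34 (*MRPL13* in *snf1*). Another 11 genes were called in no strain: *MRPL10*, *MRPL15*, *MRPL22*, *MRPL23*, *MRPL24*, *MRPL25*, *MRPL27*, *MRPL35*, *MRPL36*, *MRPL37* and *MRPL51*. Their strain means ranged from -0.57 (*MRPL37* in *snf1*) to 0.21 (*MRPL15* in *snf1*). The other 12 genes were called in some strains only. The shares of all features called in no strain, or in some strains only, are not given. These counts of 11 and 12 can therefore not be read as a trait of *MRPL* genes. *MRPL6*, *MRPL31*, *MRPL33* and *MRPL44* passed the test as lower in *snf1* only, and *MRPL8* in *cdc14-3* only. Over the 2 h arrays alone, *MRPL31*, *MRPL33* and *MRPL44* were not called in *snf1*. *MRPL6* was then called lower in *cdc14-3* as well as in *snf1*. *MRPL7* and *MRPL49* fell in *cdc14-3* and *snf1*, *MRPL11* in *cdc14-3 snf1* and *cdc14-3*, and *MRPL50* in *cdc14-3 snf1* and *snf1*. Passing the test in 1 strain and not in another does not show that strains differ, and those differences have their own tests.

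*MRPL19* (YNL185C) encodes the counterpart of bacterial protein L11, at the base of the stalk where translation factors dock. Its ratios were -0.92, -0.72 and -0.77 in *cdc14-3 snf1*, -0.75 and -0.72 in *cdc14-3*, and -1.10, -1.47 and -0.89 in *snf1*. It was low on all arrays, and its lowest value was on a *snf1* array. The mean responses were -0.80 ± 0.10 in *cdc14-3 snf1* (SD, n = 3; adjusted p in limma 0.0014), -0.73 ± 0.02 in *cdc14-3* (SD, n = 2; adjusted p in limma 0.0067) and -1.15 ± 0.30 in *snf1* (SD, n = 3; adjusted p in limma 0.0002).

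*MRPL4* (YLR439W) and *MRPL40* (YPL173W) encode the counterparts of bacterial L29 and L24, which sit at the mouth of the tunnel through which the new protein leaves the ribosome. For *MRPL4* the ratios were -0.67, -0.69 and -0.87 in *cdc14-3 snf1*, -1.13 and -1.21 in *cdc14-3*, and -0.85, -0.78 and -0.85 in *snf1*. The *cdc14-3* arrays were the lowest and overlapped with neither other strain. The mean of *MRPL4* was -0.74 ± 0.11 in *cdc14-3 snf1* (SD, n = 3; adjusted p in limma 0.0008), -1.17 ± 0.05 in *cdc14-3* (SD, n = 2; adjusted p 0.0002) and -0.83 ± 0.04 in *snf1* (SD, n = 3; adjusted p 0.0004). For *MRPL40* the ratios were -0.30, -0.29 and -0.47 in *cdc14-3 snf1*, -0.91 and -0.69 in *cdc14-3*, and -1.04, -1.03 and -0.995 in *snf1*. The 3 strains did not overlap for *MRPL40*, and its *snf1* arrays lay closest together, at a mean of -1.02 ± 0.02 (SD, n = 3; adjusted p in limma 0.0002).

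*MRPL1* (YDR116C) encodes the counterpart of bacterial L1, which forms the mobile arm at the side where spent tRNA leaves. Its ratios were -0.59, -0.42 and -0.88 in *cdc14-3 snf1*, -0.98 and -0.72 in *cdc14-3*, and -1.01, -1.08 and -0.81 in *snf1*. All were well below 0 and the strains overlapped. Its mean was -0.63 ± 0.23 in *cdc14-3 snf1* (SD, n = 3; adjusted p in limma 0.0042), -0.85 ± 0.18 in *cdc14-3* (SD, n = 2; adjusted p 0.0029) and -0.97 ± 0.14 in *snf1* (SD, n = 3; adjusted p 0.0005).

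*MRPL17* (YNL252C) and *MRPL20* (YKR085C) encode proteins with no bacterial counterpart. The *MRPL17* ratios were -0.68, -0.68 and -0.83 in *cdc14-3 snf1*, -1.26 and -1.01 in *cdc14-3*, and -0.82, -0.33 and -0.48 in *snf1*. The *cdc14-3* arrays were again lowest, without overlap with the other strains. The *MRPL17* means were -0.73 ± 0.09 in *cdc14-3 snf1* (SD, n = 3; adjusted p in limma 0.0020), -1.13 ± 0.18 in *cdc14-3* (SD, n = 2; adjusted p 0.0006) and -0.54 ± 0.25 in *snf1* (SD, n = 3; adjusted p 0.0077). For *MRPL20* the ratios were -0.37, -0.26 and -0.72 in *cdc14-3 snf1*, -1.25 and -0.63 in *cdc14-3*, and -0.97, -0.80 and -0.73 in *snf1*. The *cdc14-3* arrays of *MRPL20* lay far apart, and its call there (-0.94, adjusted p in limma 0.0035) was lost without replicate 2 (-0.63, adjusted p 0.129).

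*MRPL16* (YBL038W) stood at the other end. It encodes the counterpart of bacterial L16, which lies near the tRNA binding sites. Its ratios were 1.27, 0.77 and 0.33 in *cdc14-3 snf1*, 0.67 and 0.17 in *cdc14-3*, and 0.98, 1.76 and 1.41 in *snf1*. *MRPL16* was above 0 on every array and highest in *snf1*. It rose by 0.79 ± 0.47 in *cdc14-3 snf1* (SD, n = 3; adjusted p in limma 0.0114) and by 1.38 ± 0.39 in *snf1* (SD, n = 3; adjusted p in limma 0.0007), and its mean in *cdc14-3* was 0.42 ± 0.35 (SD, n = 2; adjusted p in limma 0.211). The call in *cdc14-3 snf1* was lost without replicate 1 of that strain, the 90 min array (0.55, adjusted p in limma 0.0893).

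*MRPL32* (YCR003W) and *MRPL28* (YDR462W) rose in *snf1*. *MRPL32* encodes the counterpart of bacterial L32, a protein whose import signal is cut off by the m-AAA protease of the inner membrane before it joins the ribosome. The *MRPL32* ratios were 0.34, 0.25 and -0.13 in *cdc14-3 snf1*, -0.09 and -0.39 in *cdc14-3*, and 0.51, 1.33 and 1.14 in *snf1*. Every *snf1* array lay above every array of the other strains. The mean was 0.15 ± 0.25 in *cdc14-3 snf1* (SD, n = 3; adjusted p in limma 0.493), -0.24 ± 0.22 in *cdc14-3* (SD, n = 2; adjusted p in limma 0.403) and 0.99 ± 0.43 in *snf1* (SD, n = 3; adjusted p in limma 0.0016).

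*MRPL28* encodes a protein specific to mitochondria. Its ratios were 0.77, -0.35 and -0.21 in *cdc14-3 snf1*, -0.51 and -0.36 in *cdc14-3*, and 0.41, 1.12 and 0.81 in *snf1*. The *cdc14-3 snf1* array heated for 90 min lay among the *snf1* arrays, and the 2 heated for 2 h lay below 0. The mean was 0.07 ± 0.61 in *cdc14-3 snf1* (SD, n = 3; adjusted p in limma 0.812), -0.43 ± 0.11 in *cdc14-3* (SD, n = 2; adjusted p in limma 0.221) and 0.78 ± 0.36 in *snf1* (SD, n = 3; adjusted p in limma 0.0146). The *snf1* call was lost without replicate 2 (adjusted p in limma 0.0935) or replicate 3 (adjusted p in limma 0.0549) of *snf1*.

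The other genes with the highest means were close to 0 and passed the test in no strain. *MRPL36* (YBR122C), for the counterpart of bacterial L31, had ratios of 0.28, 0.23 and -0.04 in *cdc14-3 snf1*, 0.19 and -0.07 in *cdc14-3*, and 0.13, 0.20 and 0.11 in *snf1*. *MRPL10* (YNL284C), for the counterpart of L15, had ratios of 0.25, 0.24 and -0.03 in *cdc14-3 snf1*, 0.01 and 0.00 in *cdc14-3*, and -0.22, 0.00 and 0.10 in *snf1*. Both overlapped between *snf1* and *cdc14-3 snf1*. *MRPL23* (YOR150W), for the counterpart of L13, had ratios of -0.11, 0.39 and -0.10 in *cdc14-3 snf1*, 0.24 and -0.21 in *cdc14-3*, and -0.23, -0.38 and -0.46 in *snf1*. *MRPL15* (YLR312W-A), for a protein specific to mitochondria, had ratios of 0.51, 0.09 and -0.21 in *cdc14-3 snf1*, -0.20 and -0.48 in *cdc14-3*, and -0.16, 0.53 and 0.26 in *snf1*. *MRPL23* was lowest in *snf1* and *MRPL15* was on both sides of 0 within *cdc14-3 snf1* and within *snf1*.

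The genes were also grouped by whether the protein has a bacterial counterpart (21 genes) or is specific to mitochondria (13 genes), a grouping made after the values had been seen. Of the 21 with a counterpart, 9 fell and 1 rose in *cdc14-3 snf1* (median -0.35), 11 fell in *cdc14-3* (median -0.49), and 12 fell and 2 rose in *snf1* (median -0.66). Of the 13 specific to mitochondria, 4 fell in *cdc14-3 snf1* (median -0.31), 4 fell in *cdc14-3* (median -0.45), and 6 fell and 1 rose in *snf1* (median -0.40). Both groups thus had medians below 0 in every strain, and the difference between the groups was not tested. In *cdc14-3 snf1*, *cdc14-3* and *snf1*, 42.9%, 52.4% and 57.1% of the 21 genes fell. Of the 13 genes, 30.8%, 30.8% and 46.2% fell. Of all features, 25.5%, 22% and 27% fell in these strains, and 20.6%, 18.3% and 24.3% rose.

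The first comparison between strains asks what the loss of Snf1 changes in cells whose Cdc14 is inactive. No *MRPL* gene differed between *cdc14-3 snf1* and *cdc14-3* in limma, where 0.0489% of all features did. At an unadjusted p under 0.05 there were 2 of the 34 *MRPL* genes and 676 of 6135 features. The difference was above 0 for 31 of the 34 genes, with a median of 0.23, against 2992 of 6135 features with a median of -0.01. It was also above 0 for 30 of 32 mitochondrial small subunit genes (median 0.42). The same held for 21 of 24 genes for mitochondrial translation factors and synthetases (median 0.20). Of 12 other mitochondrial large subunit genes 8 lay above 0 (median 0.16), and of 80 cytosolic ones 45 did (median 0.04). Genes on the same arrays are not separate results. For 11 *MRPL* genes, all of them higher in *cdc14-3 snf1*, no array of 1 strain reached into the range of the other, as held for 35.8% of all features (18.8% higher and 17% lower). The largest t values were those of *MRPL40*, *MRPL4* and *MRPL20*, whose ratios on every array are given above. *MRPL40* was higher in *cdc14-3 snf1* by 0.45 (SE 0.18, 95% interval 0.05 to 0.85, adjusted p in limma 0.389). *MRPL4* was higher by 0.43 (SE 0.17, 95% interval 0.03 to 0.82, adjusted p in limma 0.407), and *MRPL20* by 0.49 (SE 0.24, 95% interval -0.05 to 1.03, adjusted p in limma 0.502). Every *cdc14-3 snf1* array lay above both *cdc14-3* arrays for *MRPL40* and *MRPL4*, and *MRPL20* overlapped.

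The second comparison asks what inactive Cdc14 changes in cells that lack Snf1. No *MRPL* gene differed between *cdc14-3 snf1* and *snf1* in limma, where 0% of all features did. At an unadjusted p under 0.05 there were 4 of the 34 *MRPL* genes and 1137 of 6135 features. The arrays did not overlap for 5 genes, against 19% of all features (9.07% higher and 9.91% lower): *MRPL7*, *MRPL20*, *MRPL23* and *MRPL40* were higher in *cdc14-3 snf1* and *MRPL32* was lower. *MRPL40* was 0.67 higher (SE 0.16, 95% interval 0.31 to 1.02, adjusted p in limma 0.126), and *MRPL32* was 0.84 lower, a difference of -0.84 (SE 0.25, 95% interval -1.39 to -0.28, adjusted p in limma 0.157). *MRPL7* (YDR237W), for the counterpart of bacterial L5 at the top of the subunit, had ratios of -0.29, 0.02 and -0.41 in *cdc14-3 snf1*, -0.59 and -0.40 in *cdc14-3*, and -0.77, -0.69 and -0.69 in *snf1*. Its *snf1* arrays were the lowest, and *cdc14-3 snf1* was higher by 0.49 (SE 0.17, 95% interval 0.10 to 0.88, adjusted p in limma 0.205).

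This second comparison changed when the 90 min arrays were left out. Over the 2 h arrays alone, 5 *MRPL* genes differed between *cdc14-3 snf1* and *snf1*, where 22.7% of all features did. *MRPL40* was then higher by 0.63 (adjusted p in limma 0.0363) and *MRPL32* differed by -1.17 (adjusted p in limma 0.0134), and *MRPL16*, *MRPL27* and *MRPL28* were also lower in *cdc14-3 snf1*. Without *snf1* replicate 1 the count was 2 (*MRPL40* and *MRPL32*), where 12% of all features differed, and without *cdc14-3 snf1* replicate 1 it was 1 (*MRPL28*), where 4.2% did. A covariate for heat time, fitted to the 8 arrays, left the count at 0, where 1.79% of all features differed.

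**Figure D2:**
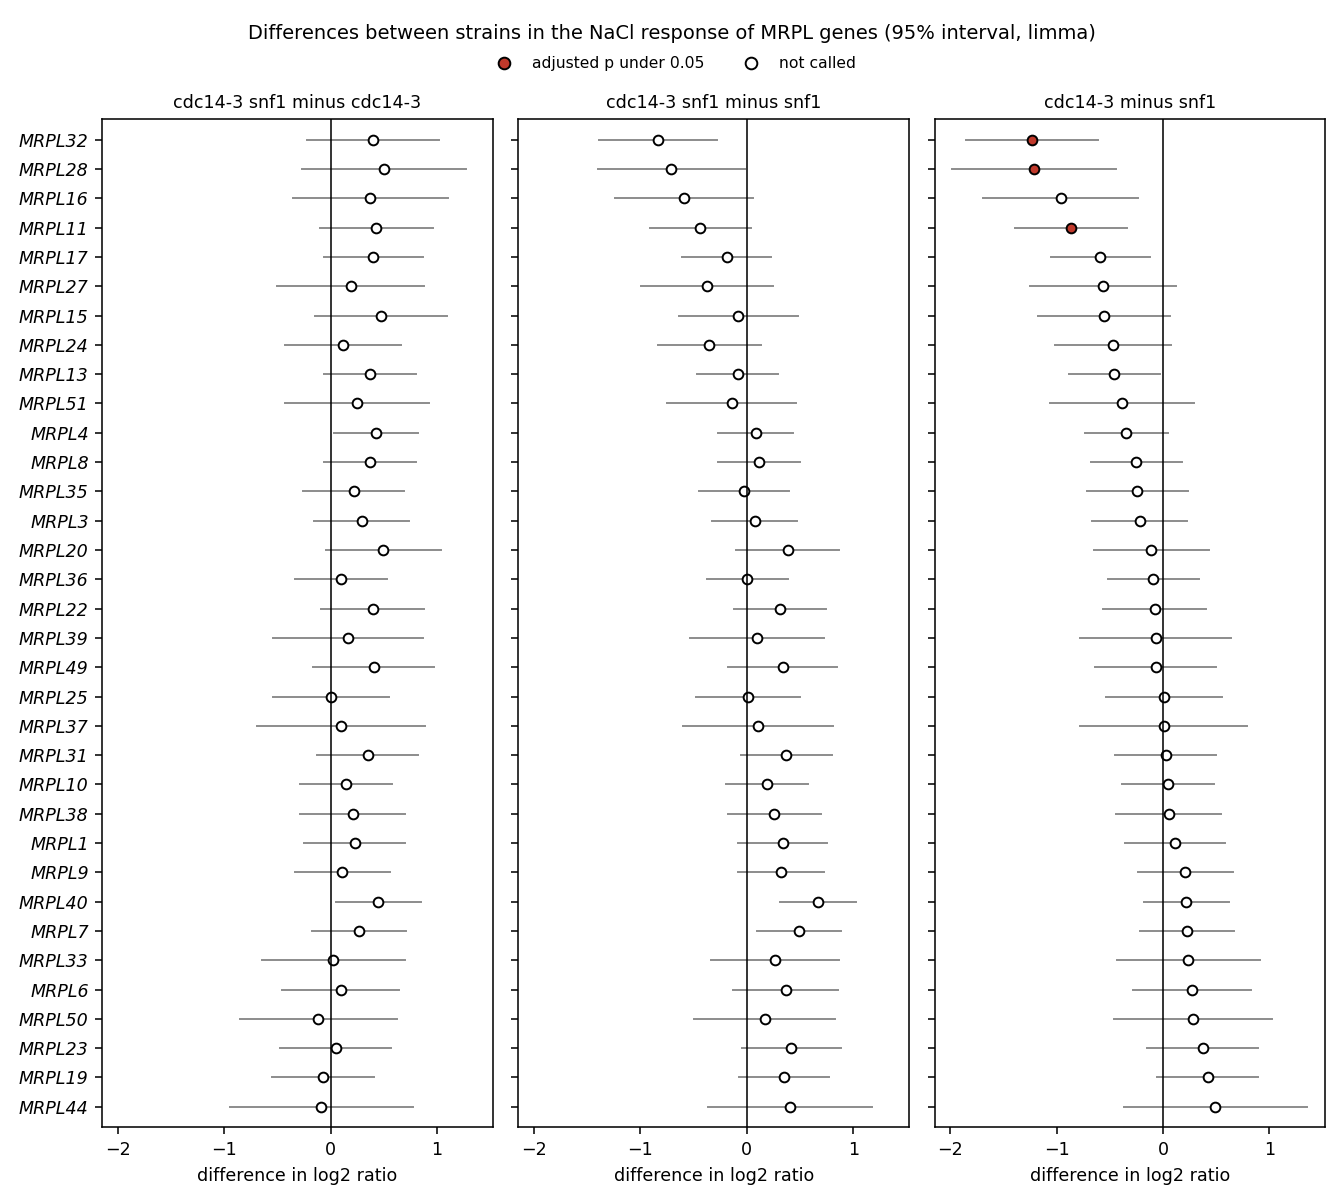
Difference between strains in the log2 ratio of each *MRPL* gene, with its 95% interval from limma, in 3 panels (*cdc14-3 snf1* minus *cdc14-3*, *cdc14-3 snf1* minus *snf1*, and *cdc14-3* minus *snf1*). Filled points passed an adjusted p of 0.05: none in the left and middle panels, and *MRPL32*, *MRPL28* and *MRPL11* in the right panel, all below 0.

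The third comparison sets the single mutants against each other. Between *cdc14-3* and *snf1*, 3 *MRPL* genes differed, all lower in *cdc14-3*, where 18.9% of all features differed (10.2% lower and 8.74% higher). The share of *MRPL* genes called, 8.82%, was below the share of all features. *MRPL32* and *MRPL28*, whose arrays are given above, did not overlap between these strains. *MRPL32* differed by -1.23 (SE 0.28, 95% interval -1.85 to -0.61, adjusted p in limma 0.0182) and *MRPL28* by -1.21 (SE 0.34, 95% interval -1.98 to -0.44, adjusted p in limma 0.0386).

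The remaining gene was *MRPL11* (YDL202W), which encodes the counterpart of bacterial L10, the protein that holds the stalk. Its ratios were -0.15, -0.69 and -0.69 in *cdc14-3 snf1*, -1.12 and -0.75 in *cdc14-3*, and 0.03, -0.01 and -0.24 in *snf1*. Both *cdc14-3* arrays were low, the *snf1* arrays were near 0, and *cdc14-3 snf1* lay between, with its 90 min array within the *snf1* range. *MRPL11* fell by 0.51 ± 0.31 in *cdc14-3 snf1* (SD, n = 3; adjusted p in limma 0.0194) and by 0.94 ± 0.26 in *cdc14-3* (SD, n = 2; adjusted p in limma 0.0032), and its mean in *snf1* was -0.07 ± 0.15 (SD, n = 3; adjusted p in limma 0.698). *MRPL11* thus differed between *cdc14-3* and *snf1* by -0.87 (SE 0.23, 95% interval -1.39 to -0.34, adjusted p in limma 0.0335). *MRPL16* differed by -0.96 (SE 0.32, 95% interval -1.69 to -0.24), which did not pass the test (adjusted p in limma 0.0668), although its *cdc14-3* arrays lay below all its *snf1* arrays. In all, 16 of the 34 genes did not overlap between *cdc14-3* and *snf1* (6 higher and 10 lower in *cdc14-3*), where 52.2% of all features did not (25.3% higher and 26.9% lower).

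These calls rested on few arrays. The count was 0 without *cdc14-3* replicate 2, where 0% of all features differed, 0 without *cdc14-3* replicate 3 (4.36% of all features) and 0 without *snf1* replicate 2 (7.79% of all features). It was 1 without *cdc14-3 snf1* replicate 3 (*MRPL32*; 13.3% of all features), 2 without *snf1* replicate 3 (*MRPL11* and *MRPL32*; 12.6% of all features) and 8 without *snf1* replicate 1 (31.3% of all features). *MRPL28* was also not called when heat time was a covariate (adjusted p in limma 0.0554) or when features with missing values were all kept (adjusted p 0.0524). With replicate number as a block, only *MRPL32* was called (14.5% of all features). Over the 2 h arrays alone 9 *MRPL* genes differed, all lower in *cdc14-3*, where 37.4% of all features differed. There *MRPL32* differed by -1.47 (adjusted p in limma 0.0030), *MRPL28* by -1.40 (adjusted p 0.0022) and *MRPL11* by -0.81 (adjusted p 0.0158).

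**Figure D3:**
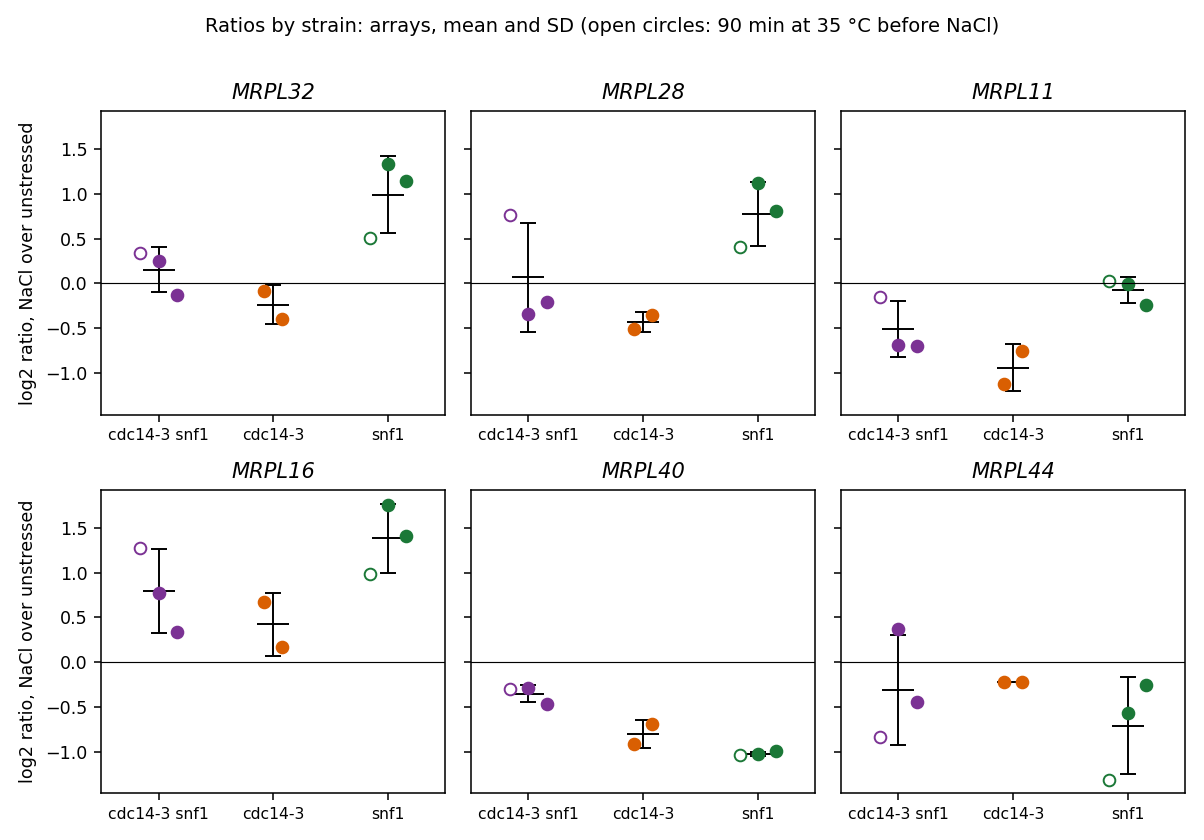
Log2 ratios of NaCl-treated over unstressed cells (vertical axis) for 6 *MRPL* genes in the 3 strains (horizontal axis). Points are arrays, open where cells were heated for 90 min before NaCl, and bars give the mean and SD. *MRPL32* and *MRPL28* lie above 0 on all *snf1* arrays and below 0 on both *cdc14-3* arrays, and *MRPL40* lies below 0 on all 8.

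The time at 35 °C before NaCl was compared directly, with strain in the model. No *MRPL* gene differed between 2 h and 90 min in limma, where 0% of all features did. At an unadjusted p under 0.05 there were 3 *MRPL* genes and 1103 features, and the median difference of the 34 genes was 0.06. *MRPL44* (YMR225C), for a protein specific to mitochondria, had ratios on the 2 h arrays of 0.37 and -0.44 in *cdc14-3 snf1*, -0.22 and -0.22 in *cdc14-3*, and -0.56 and -0.26 in *snf1*, against -0.84 in *cdc14-3 snf1* and -1.31 in *snf1* on the 90 min arrays. All the 2 h values lay above both 90 min values. With strain in the model the difference for *MRPL44* was 0.85 (SE 0.24, 95% interval 0.31 to 1.39, adjusted p in limma 0.152). The *cdc14-3* arrays, both at 2 h, add nothing to that estimate, which compares arrays within *snf1* and within *cdc14-3 snf1*.

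*MRPL37* (YBR268W), also for a protein specific to mitochondria, had ratios on the 2 h arrays of -0.23 and -0.56 in *cdc14-3 snf1*, -0.68 and -0.46 in *cdc14-3*, and -0.57 and 0.11 in *snf1*, against -0.63 in *cdc14-3 snf1* and -1.26 in *snf1* at 90 min. *MRPL6* (YHR147C), for the counterpart of bacterial L6, had ratios on the 2 h arrays of -0.16 and -0.48 in *cdc14-3 snf1*, -0.43 and -0.54 in *cdc14-3*, and -0.57 and -0.51 in *snf1*, against -0.53 in *cdc14-3 snf1* and -1.18 in *snf1* at 90 min. For both genes the *snf1* array at 90 min was the lowest of all 8. The differences were 0.63 for *MRPL37* (SE 0.26, 95% interval 0.04 to 1.23, adjusted p in limma 0.254) and 0.43 for *MRPL6* (SE 0.18, 95% interval 0.01 to 0.84, adjusted p in limma 0.272). Within *cdc14-3 snf1* both 2 h arrays lay above the 90 min array for 8 of the 34 genes and below it for 15, against 37.9% and 38.6% of all features. Within *snf1* they lay above it for 25 and below it for 3, against 43.9% and 39%. Both 90 min arrays are replicate 1, so heat time and replicate number cannot be told apart.

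Other genes of the mitochondrial translation system were set beside the *MRPL* genes. Of all features, 25.5% fell and 20.6% rose in *cdc14-3 snf1*, 22% and 18.3% in *cdc14-3*, and 27% and 24.3% in *snf1*. The 12 large subunit genes that do not carry an *MRPL* name mostly lay below 0 too: 3 fell in *cdc14-3 snf1* (median -0.28), 5 in *cdc14-3* (median -0.39) and 8 in *snf1* (median -0.52), and none rose. *IMG1*, a large subunit gene needed to keep mitochondrial DNA, fell by 1.06 ± 0.26 in *cdc14-3 snf1* (SD, n = 3), by 1.12 ± 0.18 in *cdc14-3* (n = 2) and by 1.18 ± 0.51 in *snf1* (SD, n = 3). *IMG2* and *RML2* of the same subunit also fell in all 3 strains, and *RML2*, the counterpart of bacterial L2, had means of -0.48 in *cdc14-3 snf1*, -0.88 in *cdc14-3* and -0.55 in *snf1*.

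Of the 32 genes for small subunit proteins, 5 fell and 1 rose in *cdc14-3 snf1* (median -0.11), 14 fell in *cdc14-3* (median -0.41), and 4 fell and 6 rose in *snf1* (median 0.02). Between *cdc14-3* and *snf1*, 9 of the 32 differed, all lower in *cdc14-3*, where 10.2% of all features were lower and 8.74% higher. Their median difference was -0.51, and that of the 34 *MRPL* genes was -0.07. Of the genes for small subunit proteins, *MRP1* and *MRPS9* fell in all 3 strains, and *MRPS16* fell in *cdc14-3 snf1* and *cdc14-3* and had a mean of -0.62 in *snf1* (adjusted p in limma 0.0542).

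Among 24 genes for mitochondrial translation factors, assembly GTPases and aminoacyl-tRNA synthetases, 5 fell and 1 rose in *cdc14-3 snf1*, 9 fell in *cdc14-3*, and 9 fell and 3 rose in *snf1*. *MEF1* and *TUF1*, for the mitochondrial elongation factors G and Tu, fell in all 3 strains, as did *NAM2*, for the leucyl-tRNA synthetase. *MEF1* had means of -0.74 ± 0.05 in *cdc14-3 snf1* (SD, n = 3), -1.14 ± 0.24 in *cdc14-3* (n = 2) and -1.05 ± 0.15 in *snf1* (SD, n = 3).

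The 80 tested genes for large subunit proteins of the cytosolic ribosome had lower medians than the *MRPL* genes: the number that fell was 77 in *cdc14-3 snf1* (median -1.18), 73 in *cdc14-3* (median -1.20) and 61 in *snf1* (median -0.80), and none rose. *RPL30*, *RPL26B* and *RPL21B* fell in all 3 strains, with strain means of -1.64 to -1.28. On the *snf1* arrays the median of the cytosolic genes was -1.52 at 90 min and -0.54 and -0.35 at 2 h, so that the gap to the *MRPL* genes was narrow on the 2 h arrays of that strain. Their median difference between 2 h and 90 min was 0.54, against 0.06 for the *MRPL* genes. Many cytosolic genes come in near-identical pairs whose probes may not tell the copies apart.

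**Figure D4:**
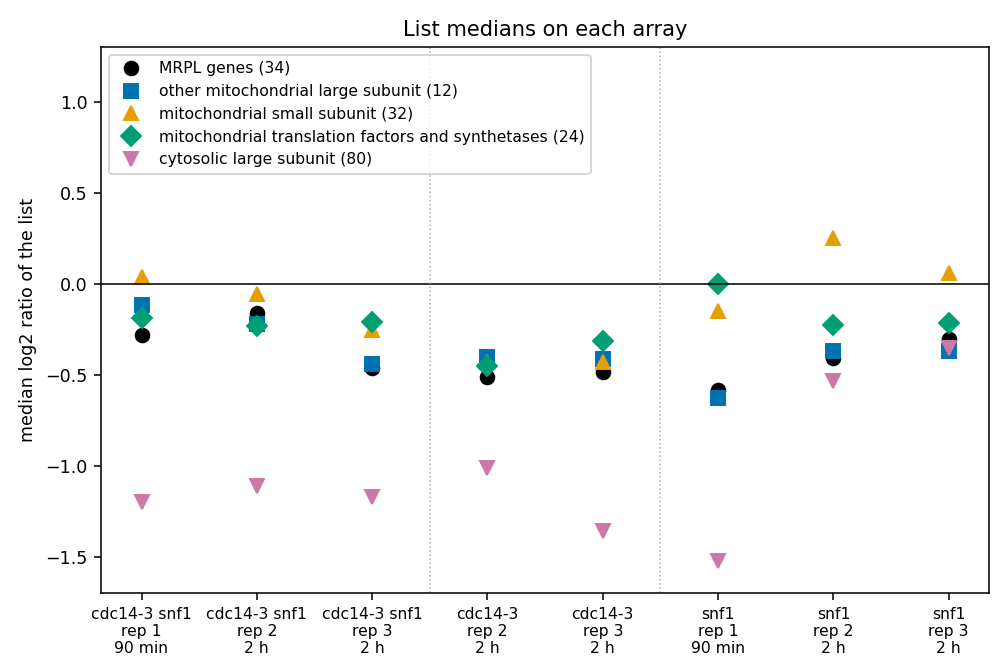
Median log2 ratio of NaCl-treated over unstressed cells (vertical axis) of 5 gene lists on each of the 8 arrays (horizontal axis, with strain, replicate and heat time). The *MRPL* median runs from -0.59 to -0.16, and that of the cytosolic large subunit genes from -1.52 to -0.35.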

How the data were processed

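RNA isolated with hot phenol was copied into amino-allyl cDNA, coupled to Oyster dyes and hybridised to whole-genome tiled arrays. The authors deposited 1 normalized log2 ratio per feature and array. The normalization steps, the way tile probes were combined and the genome build are not given in the sources used here, and neither is the reason for missing values. A dim or saturated spot cannot be recognised in such values.

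The values were used as deposited. In limma 3.58.1 (R 4.3.3) the 8 arrays were fitted together with a mean for each strain, and the 3 strains shared 1 estimate of the spread. Responses against 0, differences between strains and a heat term (with strain as covariate) were tested with eBayes, and p-values were adjusted by Benjamini-Hochberg over the 6135 features that had at least 2 values in each strain. The fit was tested on simulated data. Symbols came from a RefSeq gene table (assembly R64), which 5984 of 6868 features matched. The number of arrays limits the precision.

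The *MRPL* genes and the other lists were chosen with earlier results of these data known. Values on every array are given for the 4 highest and 4 lowest means of each response, and for the called genes of each difference or, where none was called, the 3 with the largest t. Of each other list up to 3 genes were named, by mean size. Alternatives were replicate number as a block, heat time as a covariate, the 2 h arrays alone, each array left out, array weights, other filters on missing values, other samples in the fit, rescaled or recentred arrays, and robust eBayes.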

Additional observations from a re-analysis of the deposited data

Results flagged for a closer look

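The response to NaCl differed between *cdc14-3* and *snf1* by a direct test for 3 *MRPL* genes, each lower in *cdc14-3*. That is 8.82% of the 34 genes, where 18.9% of all features differed (10.2% lower and 8.74% higher). The difference was -1.23 for *MRPL32* (SE 0.28, adjusted p in limma 0.0182), -1.21 for *MRPL28* (SE 0.34, adjusted p in limma 0.0386) and -0.87 for *MRPL11* (SE 0.23, adjusted p in limma 0.0335). None of the 3 was called without *cdc14-3* replicate 2, without *cdc14-3* replicate 3 or without *snf1* replicate 2, and *MRPL28* was not called when heat time was a covariate (adjusted p in limma 0.0554). With replicate number as a block, only *MRPL32* of the 3 was called. The check for single outlying arrays within a strain was not run, since it needs at least 4 arrays.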

How the results depend on the processing

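With array weights, 23 *MRPL* genes were called in the response of *cdc14-3 snf1* (60.5% of all features), 23 in that of *cdc14-3* (57.6%), 7 between *cdc14-3 snf1* and *snf1* (27%), and 11 between *cdc14-3* and *snf1* (41.5%). With only its own arrays in the fit, *cdc14-3* had 23 (48.7%). Over the 2 h arrays alone the counts were 5 between *cdc14-3 snf1* and *snf1* (22.7% of all features) and 9 between *cdc14-3* and *snf1* (37.4%). With the replicate block, 1 gene (*MRPL32*) was called between *cdc14-3* and *snf1* (14.5% of all features). *MRPL28* and *MRPL11* then had adjusted p of 0.0837 and 0.0637 in limma. Apart from the fits that left out 1 array, no other count of calls moved by over 1.5 times. Equally numbered arrays did not all deviate together (correlations of their deviations from the strain means, over features, of -0.21 to 0.26). Means of 2 or 3 arrays constrain these deviations, so the check cannot tell whether the numbers pair the arrays. With each array left out in turn, the counts were 6 to 17 in *cdc14-3 snf1* (33.9% to 52.9% of all features) and 17 to 22 in *snf1* (40.4% to 51%). In *cdc14-3* they were 14 to 19 (36.4% to 47.8%) where both its arrays were kept, and the fits that left it 1 array are described above. Between strains the counts were 0 to 0 for *cdc14-3 snf1* against *cdc14-3* (0% to 1.23%) and 0 to 2 for *cdc14-3 snf1* against *snf1* (0% to 12%). For *cdc14-3* against *snf1* they were 0 to 8 (7.79% to 31.3% where both *cdc14-3* arrays were kept), and for heat time 0 to 0 (0% to 5.79%).

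For the genes and contrasts named, 607 alternative values kept their direction and their side of the threshold, 21 lost the call, 7 gained one and 4 changed sign. Those 4 were small: *MRPL32* in *cdc14-3 snf1* (-0.0020 with array weights), *MRPL36* and *MRPL23* in *cdc14-3* (-0.073 and -0.21 without *cdc14-3* replicate 2, 0.19 and 0.24 without replicate 3) and *MRPL10* in *cdc14-3* (-0.016 with the replicate block). The cause was not tested. The 2 arrays of *cdc14-3* limit every comparison with that strain.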

Other observations

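The genes next to the called *MRPL* genes were looked up after those calls were known. *ACK1*, transcribed away from *MRPL11* on its upstream side, had ratios of -0.21, -0.64 and -0.75 in *cdc14-3 snf1*, -1.05 and -0.71 in *cdc14-3*, and -0.00, 0.01 and -0.36 in *snf1*. These lie close to the *MRPL11* ratios on each array, and *ACK1* differed between *cdc14-3* and *snf1* by -0.77 (SE 0.23, adjusted p in limma 0.0488). Over the 20 *MRPL* genes with a divergent upstream neighbour, the strain means of gene and neighbour correlated with r of 0.07 in *cdc14-3 snf1*, -0.07 in *cdc14-3* and 0.24 in *snf1*. Spearman's rho over the same pairs was 0.10 in *cdc14-3 snf1*, 0.34 in *cdc14-3* and 0.22 in *snf1*. *TRM8*, downstream of *MRPL11* on the same strand, differed by -0.64 (SE 0.21, adjusted p in limma 0.0616). The neighbours of *MRPL32* (*CDC10* with -0.32 and *YCP4* with 0.08) and of *MRPL28* (*CMI8* with -0.03 and *STP1* with -0.04) did not pass the test. The neighbours of *MRPL16*, itself not called in this difference (adjusted p in limma 0.0668), were also looked up. *URA7*, which encodes a CTP synthase and is transcribed away from *MRPL16*, differed by -2.63 (adjusted p in limma 0.0044). Its means were -2.94 in *cdc14-3* and -0.31 in *snf1*, both below 0, against 0.42 and 1.38 for *MRPL16*. *APL3*, downstream of *MRPL16* on the same strand, differed by 0.07 (adjusted p in limma 0.828).

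The 10 *MRPL* genes with a coding length under 450 bp, a limit chosen after the values had been seen, had a median of -1.07 on *snf1* replicate 1, against -0.48 for the 24 longer ones. On the other 7 arrays the median of the short genes ran from -0.52 to -0.12 and that of the longer ones from -0.56 to -0.20. Across the 34 genes, which share the same arrays, Spearman's rho of the heat term with coding length was -0.44, and it was -0.26 across 5695 genes.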
